A study of Mus musculus with 8 samples.

Results

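The quantity described here is the change, on knockdown of the deadenylase CNOT7, in how much of an mRNA's share of the transcriptome was found among long-tailed RNA relative to total poly(A) RNA. For each gene it is the long-tail minus total difference in knockdown neurons less the same difference in scrambled neurons, computed on log2(TPM + 1) from group means after each library was centred on its median deviation from the gene means. It is called the ratio contrast below. A positive ratio contrast means that knockdown neurons held relatively more of the mRNA in the long-tail fraction. Of the 23845 entries in the gene table, 6810 averaged 20 TPM (a transcript's share of its library scaled to 1000000) or more over all 8 libraries, and these are described. All 8 libraries of the study entered it.

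The neurons were primary hippocampal cultures from embryonic day 19 mice. At 13 to 15 days in vitro they received a lentivirus with either a scrambled hairpin RNA or a hairpin against CNOT7, and they were collected at 17 to 19 days in vitro. RNA was captured on poly(U) agarose, and total poly(A) RNA was released at 75 °C. The long-tail fraction was washed first at 50 °C, described as taking away tails shorter than 50 nucleotides, and then also released at 75 °C. The 4 groups of 2 libraries were scrambled total, scrambled long-tail, knockdown total and knockdown long-tail, so both arms carried a lentivirus and a hairpin. The labels name 1 hairpin against CNOT7 and leave unsaid if the paired libraries of each group were from different cultures. P-values then measure only the spread between these samples, which may be technical. The labels name no sorting of infected cells, and markers of glia were present (below). In such bulk RNA, fewer cells of a type and less RNA per cell cannot be told apart.

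The poly(A) tail is added in the nucleus after cleavage downstream of a polyadenylation signal, most often AAUAAA, and it is then bound by poly(A)-binding proteins. In the cytoplasm the CCR4-NOT complex, with CNOT7 or its close relative CNOT8 as one of its catalytic subunits, shortens the tail. Shortening is usually followed by decapping and decay, or by storage of the mRNA in a silent form. Neurons also lengthen tails locally, through CPEB proteins and cytoplasmic poly(A) polymerases, and dendritic mRNAs are the best known case. The ratio contrast addresses whether lowering CNOT7 moved particular mRNAs toward the long-tail fraction. TPM is a share within a library, so a difference between fractions is one of shares and does not measure tail length or amount of RNA.

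Stretches of 30 bases around the last AATAAA of 6 transcripts with high or low ratio contrasts are given, because the tail is added after this signal. They lie near annotated 3′ ends (GENCODE M21, GRCm38), and all but that of Nap1l3 stop short of the annotated end. They are printed 5′ to 3′ on the transcript's strand, with AATAAA in capitals. All 6 hold that hexamer, chosen so for display, and the 3 with low ratio contrasts come first.
Map1b, 3′UTR, chr13:99421473-99421502, minus strand: actcagttccacAATAAAatacaaagtggc
Cpeb4, 3′UTR, chr11:31935604-31935633, plus strand: agatgttgaatgAATAAAacttttaactca
Nap1l3, 3′UTR, chrX:122394565-122394594, minus strand: tggagtaaatatcaAATAAActgccatgct
Sncb, 3′UTR, chr13:54758863-54758892, minus strand: agtgtgtccatgAATAAAgccaatctgtct
Rhog, 3′UTR, chr7:102239128-102239157, minus strand: cccaccagcatcAATAAAacctcctgtctc
Syp, 3′UTR, chrX:7653221-7653250, plus strand: agaaccccccccAATAAActcctcaactat

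Among the 6457 tested genes with an annotated 3′UTR of at least 100 bases, 66.1% had AATAAA in the last 50 bases. The median ratio contrast was −0.04 with the hexamer and −0.03 without it. A cytoplasmic polyadenylation element, searched as TTTTAT or TTTTAAT on the sense strand, was in the last 100 bases of 17.9% of these genes. Their median was −0.08, against −0.03 for the others. In the libraries numbered 1 alone the medians with and without that element were 0.02 and 0.01, and in those numbered 2 they were −0.10 and 0.01. The elements overlap in letters with each other and with AU-rich sequence, and a match is a description of these letters only.

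The libraries themselves differed in ways that touch every value below. The TPM sums lay between 999689 and 999809, and no file gave a read depth. Rn45s, the ribosomal RNA precursor, took between 2.90% and 18.6% of TPM, lowest in knockdown long-tail library 2 and highest in knockdown long-tail library 1. On the first principal component (53.9% of the variance) knockdown long-tail library 2 stood at 39.3 and the other 7 libraries between −17.5 and 5.71. The libraries of the other 3 groups correlated across genes at r = 0.970 to 0.979 with their partner, and those of the knockdown long-tail group at r = 0.944. Of the cell type markers, the 6 neuronal ones summed to between 3010 and 4189 TPM and the 5 astrocyte ones to between 2261 and 4482 TPM. The hippocampal markers Prox1 and Zbtb20 summed to between 22 and 135 TPM, with the lowest sum in knockdown long-tail library 2. The 5 oligodendrocyte lineage markers summed to 538 to 844 TPM in scrambled and 233 to 318 TPM in knockdown libraries, the 4 microglial ones to at most 5 TPM and the 3 endothelial and mural ones (Pecam1, Cldn5 and Rgs5) to at most 8 TPM. Of a longer list of 20 endothelial, mural and fibroblast genes, 6 averaged 20 TPM or more, among them the collagens Col4a1 (26 to 67 TPM) and Col4a2 (17 to 33 TPM) and the transporter Slco1a4 (21 to 72 TPM). The part of these differences in the ratio contrast was not tested, beyond the values without single libraries given with the results.

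Cnot7, the targeted gene, was lower in every knockdown library. It was at 42 and 36 TPM in scrambled total, 28 and 31 TPM in scrambled long-tail, 12 and 16 TPM in knockdown total, and 9 and 11 TPM in knockdown long-tail libraries. No knockdown library reached a scrambled one in either fraction. The ratio contrast of the remaining Cnot7 mRNA was −0.09 ± 0.29 (SE, n = 2 libraries per group), with 95% limits of −0.75 and 0.58 (limma, unadjusted p = 0.766). That sign was turned by quantile normalization of the libraries (0.42).

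No gene's ratio contrast passed the test over all genes. By limma with Benjamini-Hochberg adjustment 0 of 6810 genes (0%) were called (smallest adjusted p = 0.9998). With an unadjusted p under 0.05 there was 1 gene, Mospd3 (0.0147% of genes), where 340.5 would be expected for evenly spread p-values. The p-values thus ran higher than evenly spread ones, and the 0 calls do not show that ratios were unchanged. This fit had no term for replicate number. With replicate number as a block over all groups the unadjusted count was 49, and 0 after adjustment. The median distance of the 95% limits from the estimate was 0.60 on the log2 scale. For a gene of median error, a smaller estimate than this stayed above an unadjusted p of 0.05 by limma. The adjusted test asks for a larger estimate, so 0.60 is not a limit of detection. Ratio contrasts ran from −1.31 to 0.74, with a median of −0.03, and 2943 were above and 3867 below 0. Beyond 0.50 in size there were 15 genes upward and 248 downward. The long-tail to total ratios themselves were close between the arms, with r = 0.870 (Spearman's rho = 0.888) across genes for the ratio in scrambled against that in knockdown neurons. Ratios varied more in knockdown neurons, with an SD over genes of 0.41 against 0.28 in scrambled neurons.

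The spread between libraries was also described without a model. For each gene the ratio contrast was recomputed for the 16 ways of taking 1 library from each group. All 16 values were above 0 for 139 genes (2.04%) and below 0 for 131 genes (1.92%). The share that spread between libraries alone would give was not worked out, so the size of these sets shows no excess over it. The genes with the smallest p belonged to these sets, and their members are described next, those with more long-tailed share in knockdown first. The 5 described at greatest length lie, in GRCm38, on chromosomes 5 (Mospd3, 137596645 to 137601044, minus strand), 4 (Ssbp3, 106911470 to 107049694, plus strand), X (Nap1l3, 122394565 to 122397401, minus strand), 10 (Ltv1, 13178140 to 13193168, minus strand) and 1 (Ptp4a1, 30940302 to 30949309, minus strand), and their values are summed over whole genes.

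Mospd3, a protein of the endoplasmic reticulum membrane with a major sperm protein domain, had the smallest p. It was at 86 and 67 TPM in scrambled total, 78 and 78 TPM in scrambled long-tail, 71 and 51 TPM in knockdown total, and 88 and 102 TPM in knockdown long-tail libraries. Both knockdown long-tail libraries were the highest of the 8, and the knockdown fractions did not overlap while the scrambled ones did. Its ratio contrast was 0.57 ± 0.24 (SE; limma, unadjusted p = 0.0498, adjusted p = 0.9998), and it was 0.61 without knockdown long-tail library 1 and 0.53 without library 2.

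Ssbp3, a partner of LIM-domain transcription complexes, had centred ratios of opposite sign in the arms. Its levels were 88 and 95 TPM in scrambled total, 68 and 69 TPM in scrambled long-tail, 84 and 77 TPM in knockdown total, and 77 and 87 TPM in knockdown long-tail libraries. In scrambled neurons both long-tail libraries were below both total ones, whereas in knockdown neurons the TPM of the fractions overlapped. After centring, the ratio was −0.23 in scrambled and 0.17 in knockdown neurons, a ratio contrast of 0.40 ± 0.18 (limma, unadjusted p = 0.0594), with 0.42 and 0.38 without knockdown long-tail library 1 and 2.

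Psmg4, a chaperone of proteasome assembly, was at 45 and 32 TPM in scrambled total, 41 and 42 TPM in scrambled long-tail, 32 and 26 TPM in knockdown total, and 47 and 47 TPM in knockdown long-tail libraries. Its knockdown fractions did not overlap and its scrambled ones did, and the ratio contrast was 0.52 ± 0.25 (limma, unadjusted p = 0.0733), with 0.30 without scrambled total library 1. Rhog, a small GTPase, was at 60 and 56 TPM in scrambled total, 53 and 51 TPM in scrambled long-tail, 49 and 35 TPM in knockdown total, and 49 and 58 TPM in knockdown long-tail libraries. Its ratio contrast of 0.47 ± 0.23 came with long-tail values that lay below the totals in scrambled neurons and at or above them in knockdown neurons, and it was 0.30 without knockdown total library 2.

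Other genes with the smallest p upward were Ramp3, a receptor activity-modifying protein (0.63 ± 0.29), A930005H10Rik (0.53 ± 0.23), Pianp, a neuronal ligand of a paired immunoglobulin-like receptor (0.53 ± 0.26), Tmem256 (0.52 ± 0.26) and Ackr1, an atypical chemokine receptor (0.45 ± 0.20). Ackr1 overlaps Cadm3 on the same strand, so its reads cannot be told apart from those of that gene with certainty. Tmem256 was at 213 and 329 TPM in the knockdown long-tail libraries, and its ratio contrast was 0.77 without library 1 and 0.28 without library 2, so its size rested on library 2. Ramp3 had a similar pattern, 0.82 and 0.44. All 16 combinations were above 0 in these 5 genes, so leaving out either knockdown long-tail library could not turn their sign.

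Among genes with less long-tailed share in knockdown, Nap1l3, of the nucleosome assembly protein family, differed mainly within the long-tail fraction. It was at 24 and 24 TPM in scrambled total, 19 and 21 TPM in scrambled long-tail, 24 and 26 TPM in knockdown total, and 13 and 17 TPM in knockdown long-tail libraries. The table holds whole numbers, and a step of 1 TPM at 20 TPM is 0.0671 on the log2 scale. Its totals were alike in the arms and its knockdown long-tail libraries were the lowest of the 8. The ratio contrast was −0.49 ± 0.23 (limma, unadjusted p = 0.0674), with −0.38 and −0.61 without knockdown long-tail library 1 and 2.

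Ltv1, an assembly factor of the small ribosomal subunit, differed mainly in its total level. It was at 19 and 20 TPM in scrambled total, 19 and 22 TPM in scrambled long-tail, 28 and 25 TPM in knockdown total, and 18 and 23 TPM in knockdown long-tail libraries. The knockdown totals were the highest values and the long-tail libraries of the arms overlapped. The centred ratio was 0.25 in scrambled and −0.22 in knockdown neurons, a ratio contrast of −0.46 ± 0.21 (limma, unadjusted p = 0.0606).

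Ptp4a1, a protein tyrosine phosphatase of the PRL group, was lower in knockdown neurons in both fractions, and more so in long tails. Its levels were 36 and 35 TPM in scrambled total, 35 and 38 TPM in scrambled long-tail, 25 and 26 TPM in knockdown total, and 20 and 19 TPM in knockdown long-tail libraries. No knockdown library overlapped a scrambled one. Its ratio contrast was −0.44 ± 0.21 (limma, unadjusted p = 0.0664), with −0.55 and −0.34 without knockdown long-tail library 1 and 2.

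Xpa, a damage recognition factor of nucleotide excision repair, was richer in long tails in scrambled neurons, at 22 and 20 TPM in total and 28 and 34 TPM in long-tail libraries. In knockdown neurons it was at 22 and 19 TPM in total and 19 and 26 TPM in long-tail libraries, which overlapped. Its ratio contrast was −0.46 ± 0.23. Cops3, a COP9 signalosome subunit (−0.38 ± 0.19), Phf10, a subunit of the BAF chromatin remodelling complex (−0.37 ± 0.19), Nemf, a factor of ribosome-associated quality control (−0.59 ± 0.29), Tmem184c (−0.38 ± 0.19) and Ccdc127 (−0.38 ± 0.19) completed the group apart from a histone gene. Xpa, Nemf, Phf10, Cops3 and Ccdc127 overlap a gene on the opposite strand, and the use of strand in counting is not stated in the labels.

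The histone gene Hist2h2aa2 had the lowest value among the genes with the smallest p, −0.69 ± 0.31 (limma, unadjusted p = 0.0591). It was at 136 and 82 TPM in scrambled total, 143 and 164 TPM in scrambled long-tail, 166 and 175 TPM in knockdown total, and 143 and 171 TPM in knockdown long-tail libraries. Scrambled total library 2 was the lowest of the 8 and the knockdown fractions overlapped. Without that library the ratio contrast was −0.35, and without scrambled total library 1 it was −1.03. The gene has a near-identical copy, so the division of reads between the copies is uncertain.

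**Figure D1:**
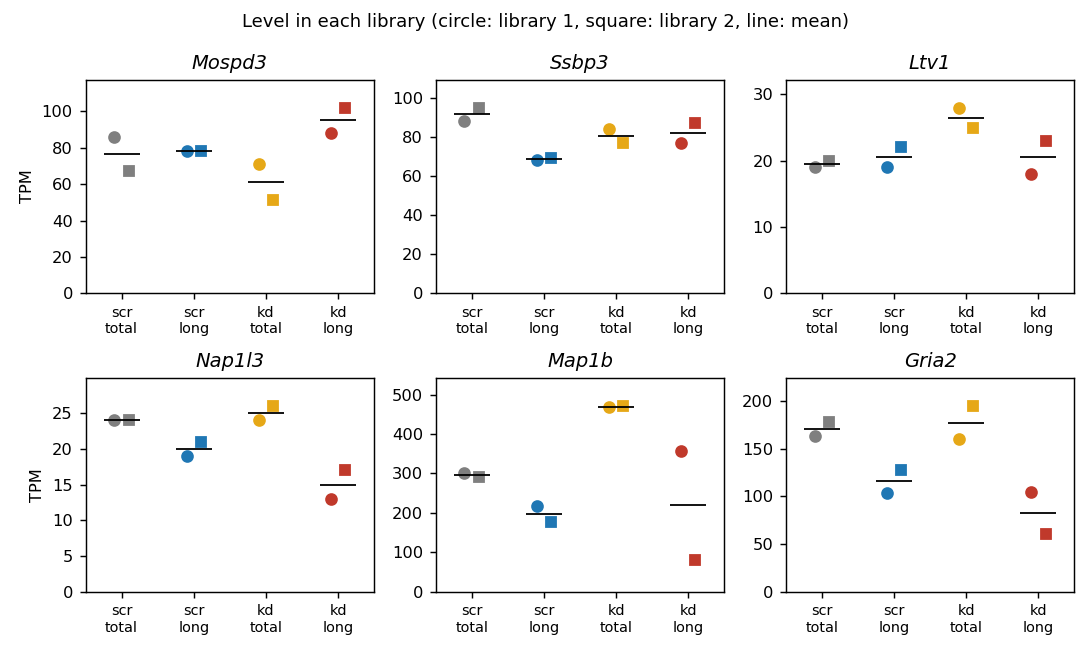
TPM (y axis, from 0) of 6 genes in the 8 libraries, grouped as scrambled (scr) and knockdown (kd) total and long-tail; circles are libraries numbered 1, squares those numbered 2 and lines the means of 2 libraries. The knockdown long-tail libraries stand at 77 and 87 TPM for Ssbp3 and at 13 and 17 TPM for Nap1l3, a wider gap than in any other group. For Map1b they stand at 358 and 80 TPM.

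The largest ratio contrasts among genes averaging 100 TPM or more were, apart from Tmem256 (above), of genes whose 16 combinations lay on both sides of 0. Map1b, a microtubule-associated protein of growing axons, was at 301 and 292 TPM in scrambled total, 218 and 177 TPM in scrambled long-tail, 468 and 471 TPM in knockdown total, and 358 and 80 TPM in knockdown long-tail libraries. One knockdown long-tail library was above all 4 scrambled libraries and the other below all 4. Its ratio contrast of −0.91 ± 0.87 became 0.23 without knockdown long-tail library 2 and −2.05 without library 1.

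Nptxr, a receptor of neuronal pentraxins (−1.22 ± 1.08), and Npcd (0.52 ± 0.90) had still wider limits. Nptxr was at 426 and 83 TPM, and Npcd at 127 and 462 TPM, in scrambled total libraries 1 and 2. Npcd overlaps Nptxr and Cbx6 on the same strand, and its reads cannot be told apart from theirs with certainty. Rn45s (−1.01 ± 1.29), Scand1 (−0.90 ± 1.07) and the nuclear noncoding RNA Malat1 (−0.77 ± 0.94) likewise had 16 combinations that lay on both sides of 0.

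Upward at this level, Ctxn1, a small membrane protein of cortical neurons (0.53 ± 0.31), Camk2n2, an inhibitor of CaM kinase II (0.50 ± 0.36), and Sncb, beta-synuclein (0.48 ± 0.27), were higher in knockdown long-tail library 2 than in any other library. Sncb was at 491 and 412 TPM in scrambled total, 466 and 416 TPM in scrambled long-tail, 513 and 384 TPM in knockdown total, and 531 and 732 TPM in knockdown long-tail libraries. Both of its knockdown long-tail libraries exceeded every other library. Without library 2 its ratio contrast was 0.32 and that of Ctxn1 was 0.29. Camk2n2 ranged from 0.18 without scrambled total library 1 to 0.81 without scrambled total library 2.

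**Figure D2:**
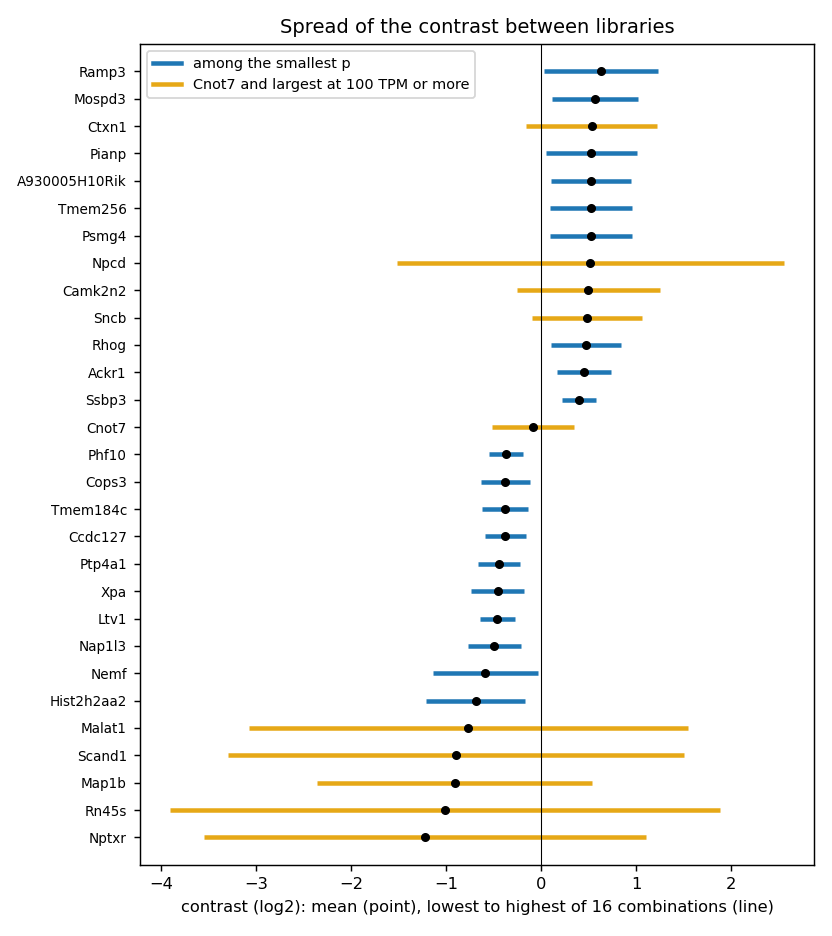
Ratio contrast (log2, x axis) of named genes: points are the value from group means and lines run from the lowest to the highest of the 16 combinations of 1 library per group. Lines of the genes with the smallest p (blue) stay on one side of 0, as does Tmem256, which is also among the largest at 100 TPM or more, and those of Cnot7 and of the other largest values at that level (orange) cross it.

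The ratio contrast did not repeat between the libraries numbered 1 and those numbered 2. Computed from either set of 4 libraries, which share no library, it correlated at r = −0.377 (rho = −0.371) across the 6810 genes, and the sign was shared by 36.7% of genes. Its SD over genes was 0.22 in the libraries numbered 1 and 0.47 in those numbered 2. The labels do not say that equal numbers mark a shared culture or day. Leaving out knockdown long-tail library 1 gave 960 genes with an unadjusted p under 0.05, 114 upward and 846 downward. Leaving out library 2 of that group gave 47, and leaving out any one of the other 6 libraries gave 0 to 19. The count after adjustment was 0 in each of these 8 fits, in which the lone library of a group is assumed to vary like the others.

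**Figure D3:**
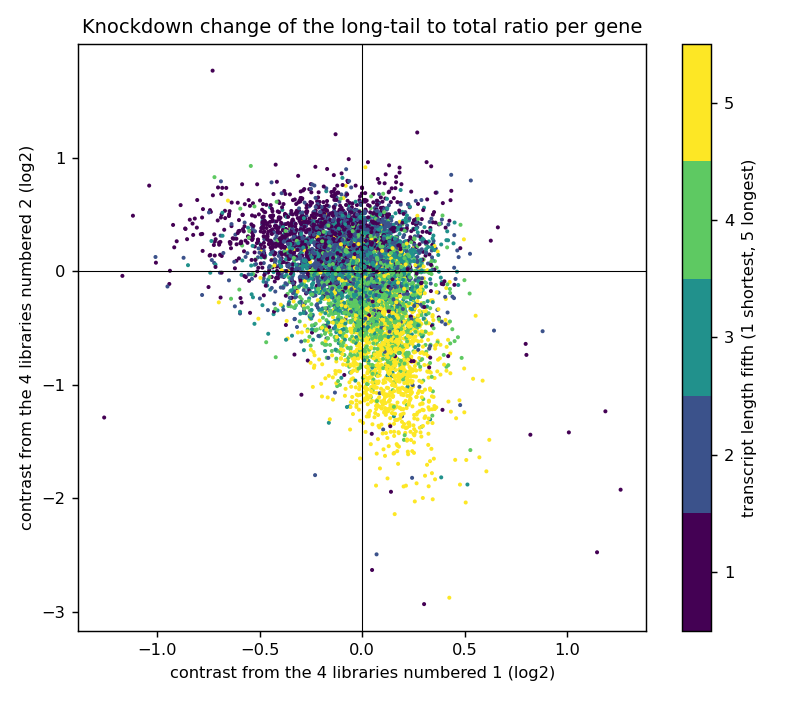
Ratio contrast of each gene from the 4 libraries numbered 1 (x axis, log2) against that from the 4 libraries numbered 2 (y axis, log2), coloured by 5 classes of transcript length. Genes with the longest transcripts (yellow) lie mostly to the right and below 0, and those with the shortest (dark) mostly to the left and above 0.

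Transcript length went with the ratio contrast, in opposite directions in the libraries numbered 1 and 2. Lengths were those of 1 GENCODE transcript per gene, matched for 6777 of the 6810 genes (99.5%). Spearman's rho between length and ratio contrast was −0.50 over all libraries, 0.45 in the libraries numbered 1 and −0.70 in those numbered 2. Without knockdown long-tail library 2 it was 0.27, and without library 1 it was −0.72. These correlations are across genes, which share the libraries, and are descriptions. In the class of longest transcripts (4910 to 27908 bases) the median ratio contrast was −0.27 and 10.8% of genes were above 0. In the class of shortest (119 to 1633 bases) the median was 0.06 and 63.3% were above 0.

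The length trend was also present in the libraries before any difference between the arms was taken. The long-tail to total ratio fell with length at rho = −0.83 in scrambled and −0.83 in knockdown neurons. Within libraries, deviations from the gene means correlated with length at 0.54 and 0.59 in scrambled total, −0.40 and −0.39 in scrambled long-tail and 0.42 and 0.69 in knockdown total libraries. In the knockdown long-tail libraries the values were −0.11 and −0.79. Library 1 of that group had the smallest trend of the 8 and library 2 the largest. For transcripts of the longest class the median deviation was 0.00 in knockdown long-tail library 1 and −0.68 in library 2.

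**Figure D4:**
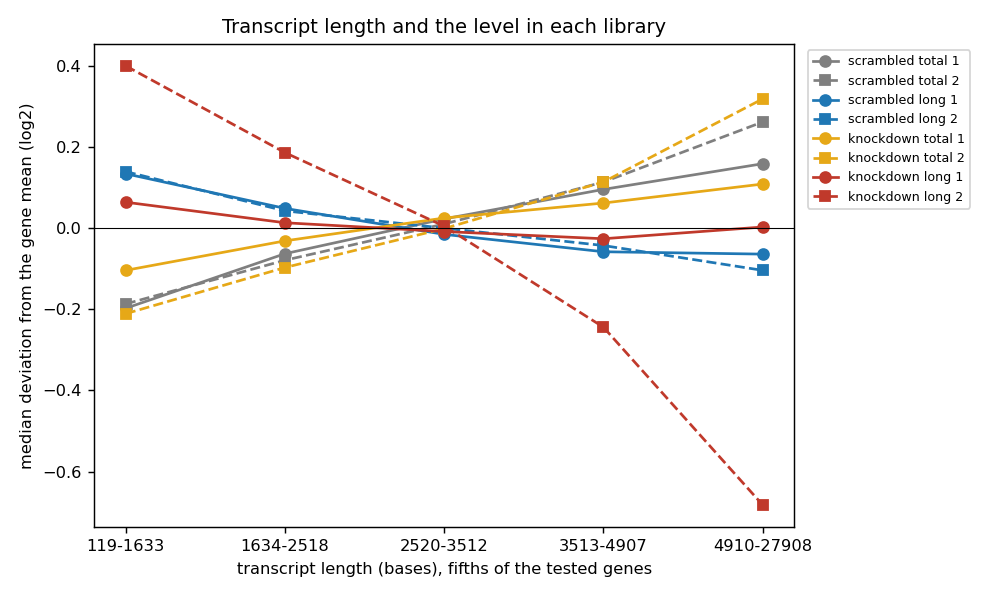
Median deviation from the gene mean (log2, y axis) in each of the 8 libraries for 5 classes of transcript length (x axis, bases). Total libraries (grey, yellow) rise with length and long-tail libraries (blue, red) fall, with knockdown long-tail library 2 reaching −0.68 and library 1 staying near 0 in the longest class.

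Base composition went with the ratio contrast in one direction, and only weakly in the libraries numbered 1. Spearman's rho with the GC content of the transcript was 0.55 over all libraries, 0.13 in the libraries numbered 1 and 0.45 in those numbered 2. Without knockdown long-tail library 1 it was 0.34, and without library 2 it was 0.41. Within libraries 1 and 2, deviations from the gene means correlated with GC content at 0.06 and −0.38 in scrambled total and 0.29 and −0.31 in scrambled long-tail. The values were 0.09 and −0.42 in knockdown total and 0.38 and 0.24 in knockdown long-tail libraries. Leaving out knockdown long-tail library 2 therefore sets a lone library numbered 1 against groups holding both numbers. Median ratio contrasts were −0.21, −0.11, −0.03, 0.05 and 0.10 from the class of lowest to that of highest GC content. The AU content of the 3′UTR gave −0.51, and the number of ATTTA motifs per kilobase of 3′UTR gave −0.33. With GC content held fixed length kept a rho of −0.46, and with length held fixed GC content kept 0.51.

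The genes whose 16 combinations shared a sign differed from the rest in the same features. Both sets were taken by the ratio contrast, which went with length and GC content over all genes, so their difference in these 2 features restates those correlations. The 139 with all 16 combinations above 0 had a median transcript length of 2437 bases and a median GC content of 55.5%. The 131 below 0 had 3434.5 bases and 45.2%, and all tested genes 2999 bases and 51.2%. AATAAA stood in the last 50 bases in 63.0% of the former and 62.5% of the latter, and the cytoplasmic polyadenylation element in the last 100 bases in 16.3% and 21.1%. When a length trend was removed from every library, 105 of the 139 and 64 of the 131 stayed in their set, and when length and GC trends were removed, 57 and 36 did. This removal was chosen after the data were seen.

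Lists of genes are described by counts and medians, beside the all-gene median of −0.03 with 2943 of 6810 genes above 0. Of the CCR4-NOT complex and its partners, 12 members were tested, 2 above and 10 below 0, with a median of −0.08 and 0 with an unadjusted p under 0.05. Without knockdown long-tail library 2 the median was 0.07. Cnot1, the scaffold, had the lowest value, −0.41 ± 0.47. It was at 31 and 15 TPM in the knockdown long-tail libraries against 30 and 33 TPM in scrambled long-tail ones, and without knockdown long-tail library 2 its ratio contrast was 0.16. Cnot11, a subunit of the complex's N-terminal module, had the highest (0.18 ± 0.25). Cnot8, the relative of Cnot7, was at 63 and 64 TPM in scrambled total, 55 and 64 TPM in scrambled long-tail, 59 and 46 TPM in knockdown total, and 45 and 54 TPM in knockdown long-tail libraries. Knockdown libraries were below scrambled ones in both fractions without overlap, and the fractions overlapped within each arm. Its ratio contrast was −0.02 ± 0.19, with 95% limits of −0.46 and 0.43.

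Of poly(A) polymerases and poly(A)-binding proteins, 13 were tested, 4 above and 9 below 0, with a median of −0.15. The median was 0.03 without knockdown long-tail library 2 and −0.27 without library 1. Papola, the canonical nuclear poly(A) polymerase, was at 76 and 74 TPM in scrambled total, 52 and 59 TPM in scrambled long-tail, 78 and 75 TPM in knockdown total, and 51 and 43 TPM in knockdown long-tail libraries. Long-tail libraries were below total ones in both arms, by more in knockdown, and the ratio contrast was −0.30 ± 0.21, with −0.12 without knockdown long-tail library 2. Zc3h14, which binds poly(A) in the nucleus, was at −0.23 ± 0.18, with −0.14 without scrambled long-tail library 2. For these 2 members all 16 combinations were below 0. Zcchc6, a terminal uridylyltransferase that acts on short tails, was at −0.53 ± 0.38 with combinations on both sides of 0.

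Of 14 cytoplasmic polyadenylation factors, 4 were above and 10 below 0, with a median of −0.10, or 0.10 without knockdown long-tail library 2. Cpeb4, which binds the cytoplasmic polyadenylation element, was at 33 and 39 TPM in scrambled total, 22 and 26 TPM in scrambled long-tail, 30 and 50 TPM in knockdown total, and 22 and 12 TPM in knockdown long-tail libraries. Its long-tail libraries numbered 1 were equal in the arms and those numbered 2 were not. The ratio contrast was −0.67 ± 0.51, and −0.20 without knockdown long-tail library 2. Pum2, a translational repressor, was at −0.33 ± 0.44, and at 0.17 without that library. Nuclear cleavage and polyadenylation factors (17 tested) had a median of −0.10, and decapping and decay factors (31 tested) one of −0.06, or 0.02 and 0.05 without knockdown long-tail library 2. Among the latter, Dcps, the scavenger decapping enzyme, had all 16 combinations below 0 (−0.35 ± 0.21). Ddx6, a helicase of P-bodies (−0.65 ± 0.56), and Rc3h2, a Roquin protein that recruits deadenylases (−0.68 ± 0.64), were at 0.03 and 0.07 without knockdown long-tail library 2.

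Receptor lists had the lowest medians. Of 13 glutamate receptor genes 3 were above and 10 below 0 (median −0.32), and of 10 GABA receptor genes 0 were above and 10 below (median −0.30). Without knockdown long-tail library 2 these medians were 0.13 and 0.04, and without library 1 they were −0.53 and −0.55. In the libraries numbered 1 the medians were 0.12 and 0.16. Median transcript lengths of the lists were 5720 and 4968 bases, above the 2999 of all genes.

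Gria2, the AMPA receptor subunit that limits calcium entry, was at 163 and 178 TPM in scrambled total, 104 and 128 TPM in scrambled long-tail, 160 and 195 TPM in knockdown total, and 105 and 61 TPM in knockdown long-tail libraries. Long-tail libraries were below total ones in both arms, and the knockdown library numbered 2 was the lowest of all. Its ratio contrast was −0.61 ± 0.41, with −0.16 without that library. Grm5, a metabotropic glutamate receptor, was at 29 and 10 TPM in the knockdown long-tail libraries (−0.82 ± 0.65, and −0.04 without library 2). Gabrb2, a GABA-A receptor subunit, was at 35 and 15 TPM there (−0.62 ± 0.55, and 0.03 without library 2), and Gabbr2, a GABA-B receptor subunit, at 111 and 55 TPM (−0.48 ± 0.45, and 0.09 without library 2).

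Of 46 mRNAs known from dendrites, 20 were above and 26 below 0, with a median of −0.04, close to that of all genes, and 0.11 without knockdown long-tail library 2. Map2, the dendritic microtubule-associated protein, was at 244 and 299 TPM in scrambled total, 152 and 195 TPM in scrambled long-tail, 221 and 293 TPM in knockdown total, and 134 and 89 TPM in knockdown long-tail libraries. Its long-tail libraries did not overlap between the arms, its total libraries did, and the ratio contrast was −0.60 ± 0.39, with −0.25 without knockdown long-tail library 2. Homer1, a postsynaptic scaffold, was at −0.62 ± 0.42, with −0.21 without that library. Of 59 presynaptic release genes 26 were above and 33 below 0 (median −0.03, and 0.12 without knockdown long-tail library 2), with Sncb and Syp, a synaptic vesicle membrane protein (0.38 ± 0.24), above. Of 36 voltage-gated channel genes 12 were above and 24 below 0 (median −0.19, and 0.15 without knockdown long-tail library 2).

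RNA transport granule proteins were below 0 in 34 of 43 cases (median −0.13), and kinesins and dyneins in 25 of 33 (median −0.16). For the granule proteins the median stayed below 0 without either knockdown long-tail library (−0.24 without library 1, −0.10 without library 2). For kinesins and dyneins it was −0.19 without library 1 and −0.02 without library 2. Caprin1, a granule protein, was at −0.35 ± 0.26, and Elavl4, a neuronal RNA-binding protein, at −0.32 ± 0.24 with all 16 combinations below 0. Without knockdown long-tail library 2 they were at −0.16 and −0.13. Kif2a, a microtubule-depolymerizing kinesin, was at −0.34 ± 0.22, and Klc2, a kinesin light chain, at 0.26 ± 0.20. Leaving out single libraries moved Kif2a between −0.49 and −0.19 and Klc2 between 0.14 and 0.38, both smallest without knockdown total library 2.

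Of 81 nuclear-encoded oxidative phosphorylation genes 57 were above and 24 below 0 (median 0.07). The median was −0.21 in the libraries numbered 1 and 0.39 in those numbered 2, and −0.11 without knockdown long-tail library 2. The median transcript length of the list was 875 bases. In the class of shortest transcripts (119 to 1633 bases) 63.3% of genes were above 0, with medians of −0.15 and 0.30 in the libraries numbered 1 and 2. Cox7a2, a cytochrome oxidase subunit, was at 253 and 239 TPM in scrambled total, 262 and 316 TPM in scrambled long-tail, 224 and 200 TPM in knockdown total, and 276 and 353 TPM in knockdown long-tail libraries. Long-tail libraries were above total ones in both arms, and the ratio contrast of 0.30 ± 0.18 was above 0 in all 16 combinations, with 0.18 without knockdown long-tail library 2. Of 83 ribosomal protein genes 46 were above and 37 below 0 (median 0.01), with medians of −0.30 and 0.36 in the libraries numbered 1 and 2. Their median transcript length was 906 bases. Rps16 (0.31 ± 0.22) and Rplp2 (0.28 ± 0.22) had all 16 combinations above 0. They were at 0.12 and 0.11 without knockdown long-tail library 2 and at 0.50 and 0.45 without library 1.

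The interferon response genes were above 0 in 10 of 11 cases (median 0.15). H2-T23, a nonclassical major histocompatibility antigen, was at 39 and 71 TPM in the knockdown long-tail libraries and between 20 and 33 TPM in the other 6. Its ratio contrast, 0.74 ± 0.43, was the highest of all genes tested, and it was 0.39 without library 2. The median of the list was 0.02 without that library. Of 11 histone genes 3 were above and 8 below 0 (median −0.29). That median was −0.08 without knockdown long-tail library 2 and −0.40 without library 1. Hist1h4i was above 0 in all 16 combinations (0.45 ± 0.24, and 0.25 without scrambled total library 1).

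Of 49 zinc finger genes named Zfp, 18 were above and 31 below 0 (median −0.10, and 0.07 without knockdown long-tail library 2), and all 16 combinations were below 0 for 7 of the 49, against 1.92% of all genes. The median transcript length of the list was 3187 bases. Over all genes, 65 of the 131 below 0 in all combinations were in the class of lowest GC content (33.9% to 45.3%). The GC content of the list was not worked out, and its part in the count of 7 was not tested. Zfp639 was at 28 and 25 TPM in scrambled total, 28 and 27 TPM in scrambled long-tail, 27 and 24 TPM in knockdown total, and 21 and 22 TPM in knockdown long-tail libraries. Both knockdown long-tail libraries were the lowest of the 8, and the ratio contrast was −0.32 ± 0.21, with −0.21 without scrambled long-tail library 1. Hmgcs1, an early enzyme of sterol synthesis, also had all 16 combinations below 0. It was at 424 and 408 TPM in scrambled total, 311 and 367 TPM in scrambled long-tail, 665 and 643 TPM in knockdown total, and 441 and 475 TPM in knockdown long-tail libraries, higher in every knockdown library. Its ratio contrast was −0.25 ± 0.17.

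Marker lists of cell types had medians near that of all genes: −0.04 for excitatory neurons (18 tested), −0.01 for inhibitory neurons (14), −0.02 for astrocytes (26) and −0.01 for the oligodendrocyte lineage (12). Without knockdown long-tail library 1 these were −0.19, −0.05, 0.04 and 0.01, and without library 2 they were 0.17, 0.09, −0.05 and −0.06. The endothelial and mural list (6 tested) had a median of −0.01, with 0.33 without library 1 and −0.42 without library 2. Over all 32 lists with at least 3 tested members, 13 medians were above and 19 below the all-gene median. Without knockdown long-tail library 2 the median of 19 lists changed sign, and without library 1 that of 6. The median of 11 lists changed sign without knockdown total library 2, and that of 13 with quantile normalization. With a length trend removed it was 14 lists, and with length and GC trends removed 16.

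**Figure D5:**
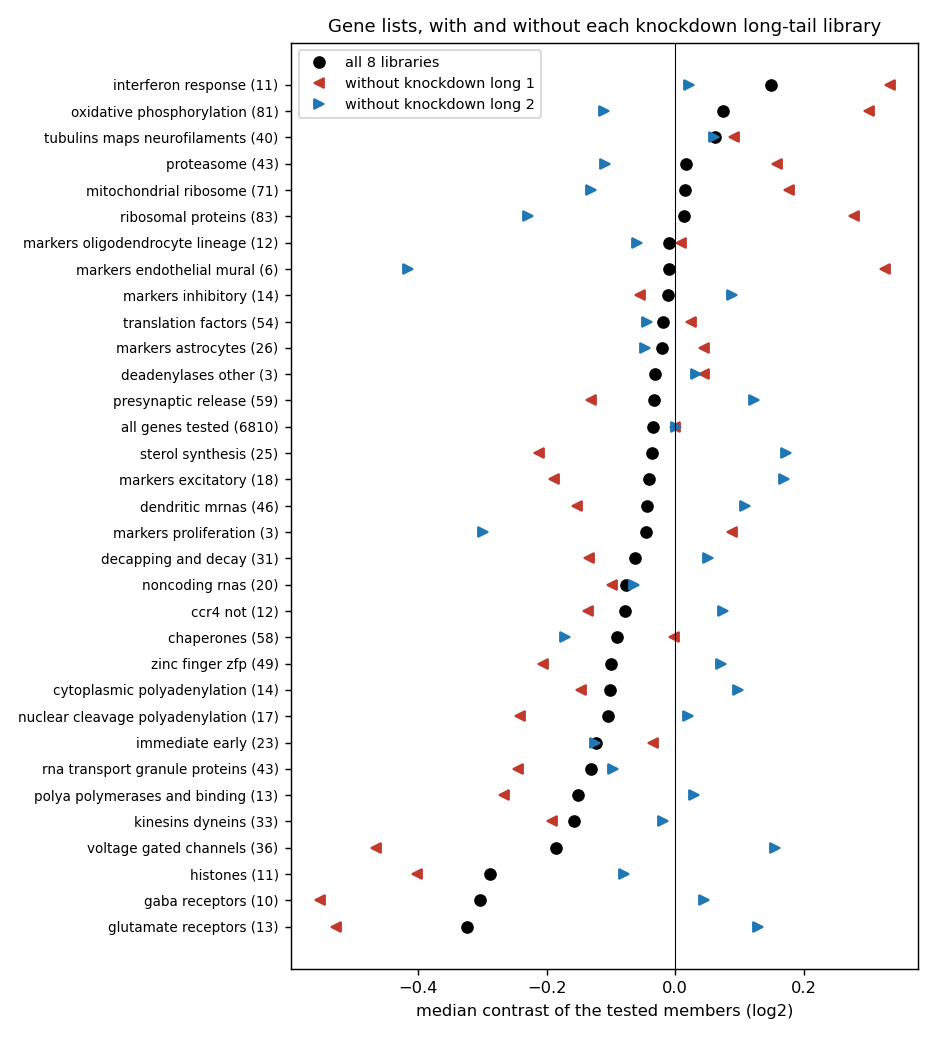
Median ratio contrast (log2, x axis) of the tested members of each gene list, with the number tested in brackets: black circles use all 8 libraries, red triangles leave out knockdown long-tail library 1 and blue triangles library 2. For glutamate and GABA receptors the red triangles are at −0.53 and −0.55 and the blue ones at 0.13 and 0.04.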

How the data were processed

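The deposited gene table gives, per its name and values, TPM as a score that the authors rounded to whole numbers. The submitters' processing notes name RSEM, TopHat2, CASAVA, DESeq2 and DESeq as tools and mm10 as build, without their versions or roles. The authors' 2 result tables were not used. Values were log2(TPM + 1), with a pseudocount of 1, for genes averaging 20 TPM or more, and each library's median deviation from the gene means was subtracted. The centring shifts ran from −0.16 to 0.15. The ratio contrast was tested two-sided in a model of 4 group means with limma 3.58.1 in R 4.3.3 (lmFit and trended eBayes), adjusted over all 6810 genes at 0.05. The fit was checked on simulated data with equal, independent noise in all 8 libraries. In the data the SD over genes of deviations from the gene means was 0.48 in knockdown long-tail library 2 and 0.20 to 0.29 in the other libraries. The check therefore does not cover the spread of the real libraries. With 2 libraries against 2 an exact permutation test cannot go below p = 0.333, so none was run. With no counts, depth is unknown.

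The members and lists were chosen with earlier results of these data known. Named genes are Cnot7, the 10 genes per direction with the smallest p, the 5 per direction with the largest value at 100 TPM or more, and at most 3 tested genes of each list, again by smallest p (all members for the CCR4-NOT, other deadenylase and cytoplasmic polyadenylation lists); not all of them are reported here. Names of 27 entries stood as dates; 17 were in the fit and are not named. Transcript features came from GENCODE M21 basic annotation (GRCm38), using the longest protein-coding transcript, and 233 genes were matched through an older symbol. The motif searches were chosen after the data were seen.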

Additional observations from a re-analysis of the deposited data

Results flagged for a closer look

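In 4 genes the centred long-tail to total ratio had one sign in every combination of knockdown libraries and the other in every scrambled one. In TPM the fractions overlapped in knockdown neurons for Ssbp3 and in scrambled neurons for Ltv1, Ptp4a1 and Zfp639. The opposite signs in every combination therefore rested on the centring. The knockdown minus scrambled difference is given for each gene. That the arms differ was not shown by a test, since no ratio contrast passed over all genes by limma. The difference was 0.40 for Ssbp3, −0.46 for Ltv1, −0.44 for Ptp4a1 and −0.32 for Zfp639. Over all 6810 genes, 15 (0.220%) had a ratio above 0 in knockdown and below 0 in scrambled neurons in this way, and 8 (0.117%) the reverse.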

How the results depend on the processing

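The count of genes with an adjusted p under 0.05 was 83 without a filter (highest mean of these 1.25 TPM) and 0 under every other setting, by limma. The count with an unadjusted p under 0.05 was 207 without a filter, 65, 15 and 2 at means of 1, 5 and 50 TPM, 0 with a pseudocount of 0.5 or 5, without centring and with library weights, and 6 with quantile normalization. Genes with all 16 combinations above and below 0 were 251 and 374 without a filter, 356 and 473 at 1 TPM, 262 and 268 at 5 TPM, 59 and 80 at 50 TPM, 36 and 29 at 100 TPM, 61 and 57 without centring, and 226 and 86 with quantile normalization. The correlation between libraries numbered 1 and 2 was −0.135 without a filter and −0.221 at 1 TPM, and that between the arms 0.680 and 0.750. With a length trend removed, chosen after seeing the data, there were 16 genes with an unadjusted p under 0.05, 268 above 0 in all combinations, and correlations of −0.143 and 0.659; with length and GC trends removed, 20, 240, −0.264 and 0.711. The causes of these shifts were not tested.

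Leaving out 1 library in turn gave 0 to 960 genes with an unadjusted p under 0.05, and 221 to 1151 above and 250 to 1811 below 0 in all combinations, which are then only 8. Ratio contrasts that changed sign ranged from −0.13 to 0.090 for Cnot8, −0.037 to 0.40 for Cnot11, −0.35 to 0.17 for Cnot7, −0.43 to 1.46 for Npcd, −2.17 to 0.37 for Scand1, −1.64 to 0.11 for Malat1, −0.97 to 0.16 for Cnot1, −0.82 to 0.17 for Pum2, −1.33 to 0.031 for Ddx6, −1.43 to 0.065 for Rc3h2, −2.42 to 0.39 for Rn45s, −2.05 to 0.23 for Map1b, −1.27 to 0.032 for Gabrb2 and −1.04 to 0.088 for Gabbr2. Cnot8 was also at 0.018 without a filter and without centring, 0.014 at 1 TPM, 0.010 at 5 TPM, 0.051 with quantile normalization and 0.036 with length and GC trends removed; Cnot7 was at 0.42 with quantile normalization and 0.13 with length and GC trends removed.

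With the replicate number as a block over all groups (replicate block) 49 genes had an unadjusted p under 0.05, and with a replicate block within genotype 17. The labels state no pairing. Differences between libraries 1 and 2 correlated across genes at 0.759 for scrambled total and long-tail and at −0.116 for knockdown total and long-tail. Between the arms they correlated at 0.674 for the total and 0.485 for the long-tail groups. Scrambled long-tail with knockdown total gave 0.577, and scrambled total with knockdown long-tail gave 0.245. With the knockdown long-tail numbers exchanged, chosen after seeing the data, the block over all groups gave a count of 78. All 3 fits gave 0 genes after adjustment. Depth, unknown here, and 2 libraries per group limit the precision.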
